A study of Mus musculus with 4 samples.

Results

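Of the 15237 merged regions of accessible DNA found in CD8+ T cells, 936 lay away from the ends of protein-coding genes and were present in all 4 libraries of the study. They are called shared distal regions here. Peaks of the 4 deposited lists, on chromosomes 1 to 19 and X, were merged wherever they overlapped by at least 1 bp. A merged region was a shared distal region if it held a peak of every list and lay wholly beyond 1 kb of both ends of every protein-coding gene of the mm10 build. The 936 made up 22.9% (95% interval 21.6 to 24.2) of the 4085 regions held by all 4 lists, and 11.1% (10.4 to 11.8) of the 8450 distal regions held by any number of lists. Regions held by all 4 lists were 26.8% of all merged regions. The intervals in this text are exact (Clopper-Pearson) and cover counting error only. In 24 of the 936 the authors' fold enrichment reached 20 or more in at least 1 list. The rule that chose the regions sets these apart as possible mapping artefacts, and they are described on their own. Summaries of peak strength, and of ranks within the shared distal regions, use the other 912. Other counts, shares and medians use all 936, the 24 included, unless the text names the 912. Presence in 4 lists, distance from gene ends and the fold limit chose the regions, so they are described and not tested.

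The libraries came from CD8+ T cells of BALB/c mice, which the series title calls tumour-infiltrating. ATAC-seq was used, in which accessible DNA is cut and tagged by the transposase Tn5. There was 1 library for each of 4 conditions: unstimulated untreated, unstimulated with phenelzine, stimulated untreated, and stimulated with phenelzine. Stimulation was by phorbol myristate acetate (PMA), an activator of protein kinase C, and ionomycin, a calcium ionophore, for 2 h. The drug phenelzine blocks monoamine oxidases and also LSD1, an enzyme that removes methyl groups from histone H3. The sources used here do not give the age and sex of the animals, the tumour, any sort of the cells, or the dose and time of phenelzine. With 1 library per condition there is no replicate check anywhere below, and no test between conditions was made.

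Accessible DNA far from annotated gene ends includes enhancers, which bind transcription factors and act on promoters at a distance, insulators bound by CTCF, promoters of noncoding RNA genes, and alternative promoters inside genes. In T cells, enhancers of this kind are known for the T cell receptor genes and for genes switched on by receptor signalling. Promoters of broadly expressed genes are known to be accessible in resting and stimulated cells alike.

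The lists differed in length. On chromosomes 1 to 19 and X, 6519 peaks were listed for unstimulated untreated cells, 7929 for unstimulated cells with phenelzine, 10405 for stimulated untreated cells and 9322 for stimulated cells with phenelzine. Values given below as 4 numbers follow this order of the lists. Shared distal regions held 942, 944, 941 and 942 of these peaks, which was 14.5%, 11.9%, 9.04% and 10.1% of the lists. The shares fall with list length, since nearly every region takes 1 peak from each list. The lists hold no read totals, so the depth is unknown. Of the T cell markers, the loci of Cd3d, Cd3g and Cd247 held a peak of every list, where a locus is the gene body with 20 kb on either side. Those of Cd8a, Cd8b1 and Cd2 held none in any list, and a locus without a peak says nothing about expression.

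The start windows of RefSeq genes give sequence at some of these regions. A start window is the 250 bases before and the 50 bases after an annotated transcription start. The 250 bases before the start are printed here in lower case for the 4 shared distal regions at a start window that ranked highest across the lists. Tprgl, the highest-ranking with the core letters of ETS factors, and Nr4a1, the member of the gene lists at a start window, were added. Capitals mark CCAAT (NFY), GGGCGG (KLF and SP factors), CCGGAAG (ETS factors) and the NRF1 motif, each on either strand. The sequences are RefSeq's for build GRCm38.p6, 5′ to 3′ on the strand of the gene.
B930059L03Rik: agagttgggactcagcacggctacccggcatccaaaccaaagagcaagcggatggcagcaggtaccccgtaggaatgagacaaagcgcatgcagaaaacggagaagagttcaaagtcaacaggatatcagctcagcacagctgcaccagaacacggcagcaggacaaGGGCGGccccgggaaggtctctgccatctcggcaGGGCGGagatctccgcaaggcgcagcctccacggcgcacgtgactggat
Sp2: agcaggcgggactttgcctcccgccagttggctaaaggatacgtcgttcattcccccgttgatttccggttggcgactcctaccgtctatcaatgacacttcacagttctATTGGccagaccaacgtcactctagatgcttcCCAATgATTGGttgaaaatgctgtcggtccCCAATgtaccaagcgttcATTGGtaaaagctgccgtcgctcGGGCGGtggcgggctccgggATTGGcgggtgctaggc
Mtfr2: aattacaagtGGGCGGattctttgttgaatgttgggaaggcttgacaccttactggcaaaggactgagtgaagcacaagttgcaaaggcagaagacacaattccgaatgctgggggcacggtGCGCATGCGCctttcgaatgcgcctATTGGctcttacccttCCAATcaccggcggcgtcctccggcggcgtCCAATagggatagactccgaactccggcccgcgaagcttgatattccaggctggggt
B330016D10Rik: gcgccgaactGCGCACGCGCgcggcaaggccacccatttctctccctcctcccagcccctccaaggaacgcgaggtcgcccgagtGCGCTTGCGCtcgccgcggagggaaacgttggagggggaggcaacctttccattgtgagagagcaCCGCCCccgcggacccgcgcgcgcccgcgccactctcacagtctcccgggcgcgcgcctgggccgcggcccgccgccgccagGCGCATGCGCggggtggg
Tprgl: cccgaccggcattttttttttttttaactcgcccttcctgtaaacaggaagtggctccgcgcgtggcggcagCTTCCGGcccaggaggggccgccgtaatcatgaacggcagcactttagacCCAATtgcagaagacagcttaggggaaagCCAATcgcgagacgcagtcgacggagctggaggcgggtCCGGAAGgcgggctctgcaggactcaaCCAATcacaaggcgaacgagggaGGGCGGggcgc
Nr4a1: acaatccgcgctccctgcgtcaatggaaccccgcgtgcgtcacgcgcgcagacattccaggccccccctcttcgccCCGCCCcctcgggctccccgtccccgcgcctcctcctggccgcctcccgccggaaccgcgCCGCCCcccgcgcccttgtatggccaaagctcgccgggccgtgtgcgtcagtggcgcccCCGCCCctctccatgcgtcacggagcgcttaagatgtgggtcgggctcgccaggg

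The first sequence, chr12:110591124-110591373 on the plus strand, belongs to the long noncoding RNA gene B930059L03Rik and has a GC content of 59.6% with 16 CpG sites. The second, chr11:96977689-96977938 on the minus strand, lies inside Sp2, which encodes a zinc-finger factor of the SP family, 4835 bp from the nearer end of that gene. It holds CCAAT 6 times on either strand and GGGCGG 1 time. The third, chr10:20347569-20347818 on the plus strand, lies inside Mtfr2, a mitochondrial fission regulator gene, and holds the NRF1 motif 1 time and CCAAT 3 times. The next, chr4:141545912-141546161 on the plus strand, is at the noncoding RNA gene B330016D10Rik, 7243 bp from an end of Spen. It is 75.2% GC with 38 CpG sites and holds the NRF1 motif 3 times. The Tprgl sequence, chr4:154160685-154160934 on the minus strand, holds CCGGAAG 2 times and CCAAT 3 times. The Nr4a1 sequence, chr15:101266596-101266845 on the plus strand, is an internal start 7913 bp from the nearer end of the gene and holds GGGCGG 3 times. The regions at Sp2 and B330016D10Rik covered all 250 printed bases, and those at Nr4a1, Tprgl and Mtfr2 covered 225, 208 and 155 of them. The region at B930059L03Rik covered only the last 64, so part of that sequence lies outside it.

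Regions like these were common among the shared distal regions. A start window of a RefSeq gene was overlapped by 266 of the 936, or 28.4% (25.5 to 31.4). Over distal regions of any number of lists the share was 8.71%. It was 14.2% (12.0 to 16.7) of the 879 distal regions held by 3 lists, 8.89% (7.48 to 10.5) of the 1474 held by 2 lists and 4.15% (3.62 to 4.73) of the 5161 held by 1 list. Of the 266, 206 were at a start of a protein-coding gene more than 1 kb inside or outside the ends the gene table gives, 81 were at a start of a long noncoding RNA (lncRNA), and 21 were at both. Shared regions were also wider, with a median of 278 bp (82 to 4595) against 210, 169 and 94 bp for distal regions of 3, 2 and 1 lists. Merging more peaks makes a region wider and gives it more chance to touch a window. With every region set to the 200 bases around its centre, the share was 26.6% for shared distal regions and 4.42% for regions of 1 list.

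**Figure D1:**
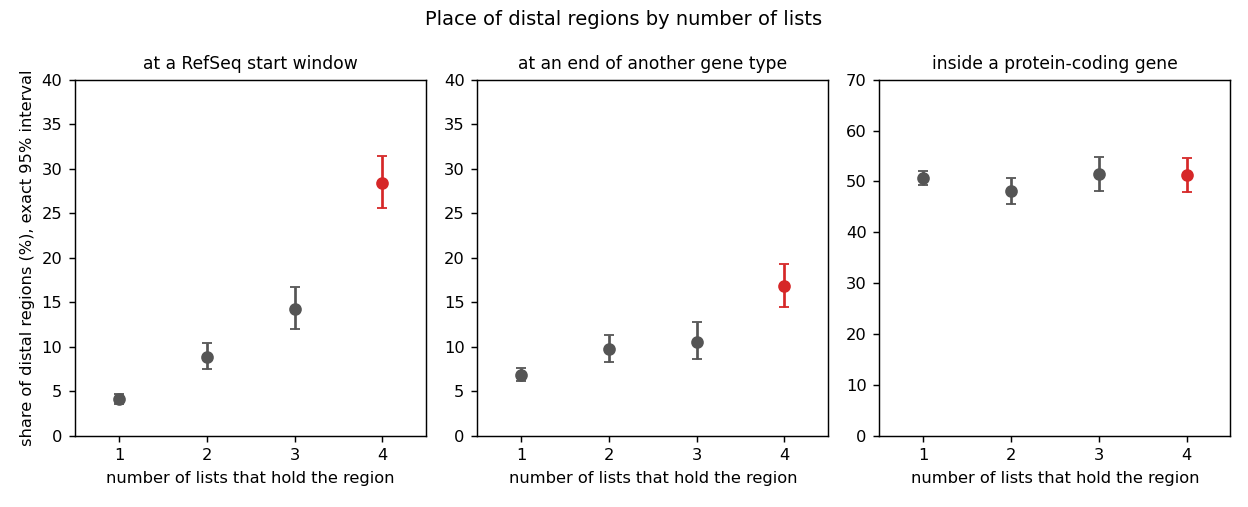
Share of distal regions (y axis, percent, with exact 95% intervals) by the number of lists that hold the region (x axis), for overlap with a RefSeq start window, an end of a gene of another type, and a protein-coding gene body. The shared distal regions, in red, stand at 28.4%, 16.8% and 51.3%.

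The strongest start-window regions were at 2 lncRNA genes, Sp2 and Mtfr2. Strength is given by −log10 q, the negative decimal logarithm of the q-value that the authors' peak caller gave a peak in its own list. It depends on the depth of that library, so higher or lower between lists describes the listed values and not a measured change of accessibility. At B930059L03Rik −log10 q was 14.8, 9.97, 12.2 and 11.5. At Sp2 it was 12.9, 11.2, 13.1 and 10.6, and the fold enrichment was 9.28, 8.09, 8.63 and 7.95. At Mtfr2 −log10 q was 9.48, 9.0, 10.4 and 12.0. These 3 regions were strong in every list. At B330016D10Rik the values were 6.96, 18.5, 9.27 and 13.0, so both phenelzine lists stood above both untreated ones in this region. The next by mean rank were at Psma3 (a proteasome subunit), Tprgl, Nat10 (an RNA acetyltransferase), Gpx4 (a glutathione peroxidase that protects lipids), Fancm (a DNA helicase of the Fanconi anaemia pathway), the lncRNA gene 1700113A16Rik, Gzf1, and Clta, which encodes clathrin light chain A. Their lowest value in any list was 4.80, at Clta, and their highest 11.4, at Nat10. These genes were chosen after their values were seen.

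Regions at a start window or at an end of another gene type had higher medians than the rest. Among the 912 regions, the 265 at a start window had a median −log10 q of 3.69, 3.51, 4.61 and 3.81 in the 4 lists. The 65 at an end of another gene type only had 3.74, 3.68, 4.21 and 3.74. The 243 inside a protein-coding gene and at neither had 2.67, 2.44, 3.38 and 2.84, and the 339 between genes had 2.77, 2.65, 3.30 and 2.99. In each list the first and second groups were above the other two. A −log10 q of 3 or more in all 4 lists was reached by 35.5% of the start-window regions, 36.9% of those at an end of another gene type, 16.05% of the intragenic and 20.4% of the intergenic rest.

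The start windows under shared distal regions had the base composition of CpG-rich promoters. Shared distal regions overlapped 328 of the 32851 start windows, 236 of protein-coding genes and 92 of lncRNA genes. Windows of 1 gene can overlap each other. Their median GC content was 63.0% and their median number of CpG sites 24. Over all start windows the medians were 52.7% and 7. For the 3520 windows under gene-end regions held by all 4 lists they were 62.7% and 25, and for the 259 windows under distal regions of 1 list 59.3% and 17.

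In a search for 11 short motifs on both strands, the order of the window sets differed from motif to motif. GGGCGG was in 73.5% (68.3 to 78.2) of the 328 windows, 35.7% of all start windows, 75.03% of those under gene-end regions of all 4 lists and 52.9% of those under distal regions of 1 list. The NRF1 motif was in 22.0% (17.6 to 26.8), 4.60%, 21.5% and 8.11% of the same 4 sets. CCGGAAG of ETS factors was in 22.3% (17.9 to 27.2), 8.86%, 26.5% and 12.4%. CCAAT was in 45.1% (39.6 to 50.7), 37.4%, 52.5% and 34.0%. The CTCF core motif was in 4.27% (2.35 to 7.06), 1.28%, 2.41% and 3.09%, and ATGGCGG of YY1 in 7.32%, 4.05%, 11.1% and 6.18%. Letters of other factors were in a smaller share of the windows under shared distal regions than of all start windows, and for AP-1, the E-box and IRF the interval includes the share of all windows. TGANTCA of AP-1 was in 6.10% (3.76 to 9.26), 7.81%, 3.69% and 10.0% of the same 4 sets. Within shared distal regions it was in 12.0% (6.12 to 20.4) of the lncRNA windows and 3.81% (1.76 to 7.12) of the protein-coding ones. TGTGGTT of RUNX was in 2.74% (1.26 to 5.14), 5.27%, 3.18% and 5.79%. CAGCTG, the E-box of E proteins, was in 41 of the 328 windows (9.12% to 16.6%), and in 16.3%, 11.8% and 19.7% of the other sets. The IRF motif was in 2.13% (0.862 to 4.35), 3.44%, 2.59% and 3.47%, and CTTTGAA of TCF and LEF factors in 2.13% (0.862 to 4.35), 5.14%, 3.04% and 4.25%. Several of these motifs are rich in G and C, and the windows under shared distal regions are too. A match of letters describes a window and shows no binding.

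**Figure D2:**
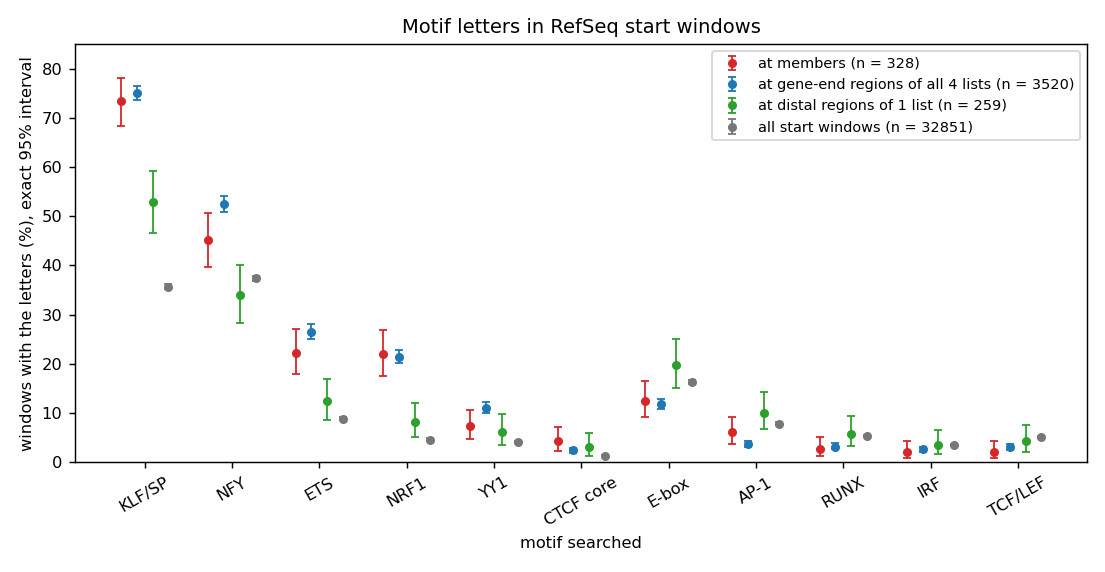
Share of RefSeq start windows that hold each motif on either strand (y axis, percent, with exact 95% intervals) for windows under shared distal regions, gene-end regions of all 4 lists, distal regions of 1 list, and all windows. GGGCGG, in the KLF/SP column, is in 73.5% of windows under shared distal regions and 35.7% of all windows.

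Genes that encode no protein had ends near some of the regions, part of which were already counted at a start window. An end of such a gene lay within 1 kb of 157 shared distal regions, or 16.8% (14.4 to 19.3). The shares for distal regions of 3, 2 and 1 lists were 10.6%, 9.70% and 6.88%. Of the 157, 128 were at a lncRNA, 15 at a tRNA gene, 12 at a pseudogene and 6 at a small nucleolar RNA, and a region can count under several types. In all, 331 of the 936 were at a start window or an end of another gene type, and 605 at neither.

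tRNA genes are transcribed by RNA polymerase III from promoters inside the gene. The body of a tRNA gene was overlapped by 14 shared distal regions, or 1.496% (0.820 to 2.50). The share was 0.910% for distal regions of 3 lists, 0.950% for 2 lists and 0.368% (0.222 to 0.574) for 1 list. Neighbouring examples were at n-THgtg4, chr2:122375555-122375773, and at n-THgtg3, chr2:122377421-122377600, both histidine tRNA genes. The −log10 q was 3.81, 6.37, 5.96 and 5.07 at the first and 5.59, 5.33, 5.31 and 5.69 at the second. At n-TTagt9, chr7:35234802-35234989, a threonine tRNA gene, it was 3.75, 7.32, 8.69 and 7.28, lowest in the unstimulated untreated list. The arginine tRNA gene n-TRccg1 on chromosome 11 gave 4.23, 6.28, 7.47 and 7.32.

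Other small RNA genes were present singly. Rn7sk, chr9:78175642-78175972, encodes the 7SK RNA that holds the elongation factor P-TEFb inactive, and had −log10 q of 3.37, 5.99, 5.78 and 2.01. Rn7s2, on chromosome 12, encodes the 7SL RNA of the signal recognition particle and had 4.66, 1.62, 2.34 and 1.66. Scarna2, a guide RNA of Cajal bodies, had 7.28, 9.08, 8.19 and 5.57. Hosts of small nucleolar RNAs included Snhg15, Snhg8, Snhg9 and Dancr, of which Snhg8 had 4.25, 5.66, 7.37 and 6.44. Mir210, a microRNA gene known from hypoxia, lay at chr7:141221747-141222063 with 5.51, 4.52, 4.63 and 2.70. In these genes no condition was highest throughout. They too were chosen after their values were seen.

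The distal places themselves were spread over the genome. The median distance to the nearest end of a protein-coding gene was 13863.5 bp, with quartiles at 3597 and 49780.5 bp. Within 5 kb lay 292 regions (31.2%), against 16.5% of distal regions of 1 list, and beyond 50 kb 232 (24.8%), against 30.4%. A protein-coding gene body held 480, or 51.3% (48.0 to 54.5), beside 50.4% of all distal regions. Just outside the gene end window were regions at 1022 bp from Pkd1, 1033 bp from Tiparp and 1038 bp from Gm31513. Just within it, and so left out, were regions at 987 bp from Fam207a, 974 bp from Nadk and 972 bp from Wdr62. Most stood alone, 852 of the 936. The other 84 fell into 36 clusters with gaps of up to 12017 bp between neighbours, and 31 of these were pairs.

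The strongest regions at neither a start window nor a noncoding gene end, with folds under 10 and outside the clusters named below, were in or near genes of various roles. One inside Kirrel3, which encodes a cell adhesion protein, had −log10 q of 10.3, 9.40, 13.9 and 9.93. One inside Fdft1, the squalene synthase gene, had 7.62, 5.45, 12.6 and 7.64, highest in the stimulated untreated list. Values near Trappc9 were 7.86, 6.74, 7.86 and 7.01, and inside Pcmtd2 6.54, 6.97, 7.45 and 8.73. A region inside Kat6b, a histone acetyltransferase gene, lay 1216 bp from the gene's end, close to the limit of the rule. These genes were also chosen after their values were seen.

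Among genes with roles in T cells, those with a shared distal region included immediate early genes and lymphoid factors. The locus of a gene was as above. A shared distal region lay in the locus of 1034 of the 21631 protein-coding genes, or 4.78%. This share was not adjusted for gene length. Of 234 genes in 16 lists for T cells, the drug's targets, other cell types and housekeeping, 16 had one, or 6.84%. These were 3 of 30 lymphoid transcription factors (Ets1, Ets2, Runx2), 4 of 20 AP-1 and immediate early genes (Fos, Fosb, Nr4a1, Ier2), and 2 of 18 in the NF-kB and NFAT list (Nfatc2, Ppp3ca). The T cell receptor and CD8 list had 1 of 20 (Ptprc), the inhibitory receptors 1 of 12 (Pdcd1) and the activation receptors 1 of 20 (Tnfrsf9). Housekeeping genes had 2 of 13 (Actb, Ywhaz). No gene had one among 15 cytokines and chemokines, 12 cytotoxic granule genes, or 15 genes of LSD1 complexes and monoamine oxidases. Of the lists for other cells, myeloid markers had 1 of 14 (Cd14) and stromal and endothelial markers 1 of 12 (Vwf). The lists of B cell, NK, epithelial, and CD4 or regulatory T markers, with 10, 7, 10 and 6 genes, had none.

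Immediate early genes are transcribed within minutes of T cell receptor signalling. A region 7214 bp from an end of Nr4a1, an orphan nuclear receptor gene, lay at chr15:101246317-101246688 with −log10 q of 7.54, 3.83, 4.87 and 6.395. A second, at the internal start whose sequence is given above, was weak, with 1.58, 1.66, 2.29 and 1.55. A region 18312 bp from Fos, which encodes a subunit of AP-1, had 2.87, 3.20, 5.71 and 4.15. Here both stimulated lists were above both unstimulated ones. At Fosb, another AP-1 subunit gene, the values were 3.98, 2.18, 3.59 and 1.79, with both phenelzine lists below both untreated ones. At Ier2, 1127 bp from the gene, they were 4.72, 2.66, 6.99 and 4.79.

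Among lymphoid factors, the region 7838 bp from Ets2 had 5.93, 3.37, 4.85 and 5.25. A place inside Ets1, a factor needed for T cell development, had 2.01, 3.03, 4.03 and 1.57. The pair inside Runx2, with Supt3 as the nearest end, had 4.47, 1.90, 3.70 and 4.78, and 2.80, 2.06, 1.54 and 2.62. The region inside Ptprc, which encodes the phosphatase CD45, had 3.25, 2.38, 4.998 and 2.84. No order of the lists was repeated among these 5 regions.

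Signalling genes and receptors were of similar strength. Nfatc2, a calcium-responsive factor gene, had 2.26, 2.25, 2.52 and 2.43, the narrowest range of these regions. Ppp3ca, the calcineurin catalytic subunit gene, had 3.05, 2.84, 1.88 and 3.12. A region 2771 bp from Pdcd1, the gene for the inhibitory receptor PD-1, had 1.34, 1.90, 2.19 and 3.02, so it was near the authors' limit in the unstimulated untreated list. Tnfrsf9, the gene for the costimulatory receptor 4-1BB, had 4.78, 5.01, 6.15 and 2.25 at a region 5523 bp away that is nearer to Park7. The pair inside Actb had 3.06, 2.93, 4.70 and 4.75, and 5.49, 2.43, 4.05 and 3.87. Cd14 had 2.19, 2.92, 3.23 and 1.74 at a region that is nearer to E230025N22Rik. Vwf had 2.12, 1.63, 2.28 and 4.47. If each peak had to reach a −log10 q of 3, only Ets2 and Nr4a1 of the 16 would be left.

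**Figure D3:**
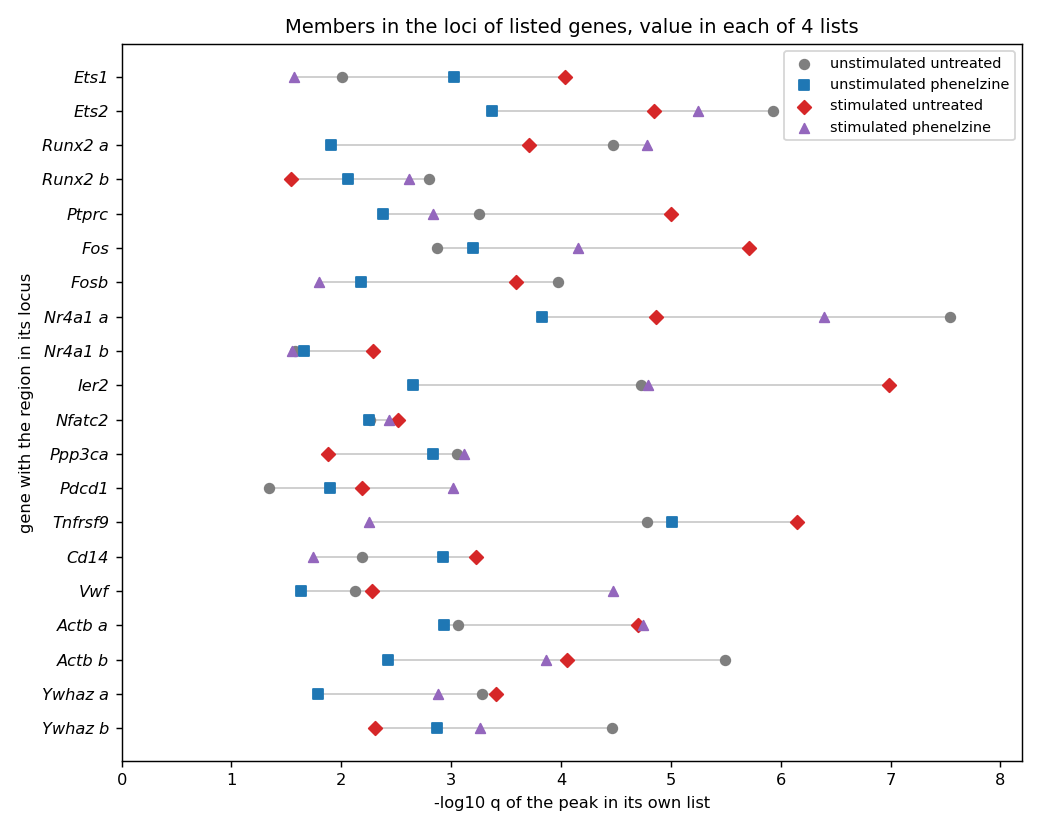
The −log10 q (x axis) of each shared distal region in the locus of a listed gene (y axis), with 1 symbol for each of the 4 lists and a grey line over their range. Values run from 1.34 at Pdcd1 to 7.54 at Nr4a1, and the order of the lists differs from region to region.

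The T cell receptor loci are not in the protein-coding gene table. One region lay at chr14:54227287-54227747, 3089 bp from the constant segment Trac and 7738 bp from Dad1. The interval between these genes is known to hold the enhancer of the T cell receptor alpha locus. The fold enrichment was 4.43, 4.14, 4.80 and 4.34, and −log10 q was 2.10, 1.68, 3.13 and 2.07. The peaks of the 4 lists shared only 15 bp. It was singled out after its values were seen. Another region, chr12:115614327-115614722, lay between the immunoglobulin segments Ighv1-67 and Ighv1-69, and its peaks had no base common to all 4 lists.

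Genes with several regions were rare. In all, 70 of the 21631 genes, or 0.324%, had 2 or more shared distal regions in the locus, and 66 of these had exactly 2. Sfi1, which encodes a centrosomal protein, had 6. Their folds were low, from 2.41 to 3.77, and their widths ran from 252 to 792 bp. Cirbp, the cold-inducible RNA-binding protein gene, and its neighbour Midn had 3 each, the same regions, over 18.4 kb of chromosome 10. Those at the Midn and Cirbp start windows had −log10 q of 5.67, 4.37, 7.12 and 7.22, and of 3.46, 5.96, 3.86 and 3.75. Mid1, on the X chromosome, had 3 over 18.3 kb, the strongest with 8.06, 8.69, 7.51 and 7.27. Listed genes with 2 were Actb, Nr4a1, Runx2 and Ywhaz.

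The 912 regions were of middling strength within each list. Their median fold enrichment was 5.04, 4.88, 5.25 and 5.05, and their median −log10 q 3.02, 2.84, 3.76 and 3.22. In its own list the median peak stood at percentile 51.8, 53.5, 63.9 and 61.4 by −log10 q. A percentile depends on the length of its list, so these 4 are not compared with each other. Peaks of distal regions held by 1 list had median percentiles from 16.03 to 21.5, and those of gene-end regions held by all 4 from 65.9 to 78.5. The number of lists was part of the rule, so these percentiles are described and not tested. The lowest of the 4 values was under 2 for 410 of the 912, at least 3 for 226 and at least 5 for 73.

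Regions held their place among the 912 only in part from list to list. Spearman's rho of −log10 q across the regions was between 0.480, for both unstimulated lists, and 0.572, for both stimulated lists. These are correlations across regions of libraries that share the genome's mappability and base composition, and regions are not replicates. Of the 100 highest in each list, 52 were the same in all 4, and 178 were in the top 100 of any list. A base common to the peaks of all 4 lists was found in 904 of the 936, with a median common stretch of 96 bp. The midpoints of the 4 peaks differed by a median of 58.5 bp.

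The regions that changed rank most among the 912 were these. Near Gpcpd1 the ranks were 59, 690, 909 and 470, where 1 is the highest, with −log10 q of 8.43, 2.04, 1.34 and 3.15. At a start of Phf14, a chromatin protein gene, they were 165, 860, 44 and 77, with 5.11, 1.54, 11.5 and 7.97. At a start of Nfyc, a subunit of the CCAAT-binding factor NFY, they were 290, 92, 360 and 887. Inside Abtb2 they were 899, 121, 234 and 481. Near Tas2r143, a bitter taste receptor gene, they were 110, 636, 405 and 873, and near Arhgap12 118, 868, 496 and 462. Both stimulated lists were above both unstimulated ones at Phf14 and below them at Nfyc, and both phenelzine lists were below both untreated ones near Tas2r143. In the other three the conditions overlapped.

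How the lists ordered the regions was described by ranking all 4085 regions held by all 4 lists on −log10 q in each list. Both stimulated lists ranked a region above both unstimulated lists for 127 shared distal regions, or 13.6% (11.4 to 15.9), beside 16.3% of the 4085. The opposite order held for 160, or 17.1% (14.7 to 19.7), beside 16.8%. Both phenelzine lists ranked above both untreated lists for 174, or 18.6% (16.1 to 21.2), beside 16.7%, and below them for 157, or 16.8% (14.4 to 19.3), beside 16.8%. The first interval lies below the share of all 4085, and gene-end regions stood at 17.1% (15.8 to 18.5). The other three intervals include the share printed beside them and show nothing about the shared distal regions. With 2 libraries a side, whether the first difference would recur was not tested.

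The widest gaps, picked from their values, were as follows. Inside Enpp6, at chr8:46941311-46941577, −log10 q was 2.68, 2.79, 7.09 and 6.64, higher in both stimulated lists. At an internal start of Lrrc1, chr9:77544797-77545020, it was 5.22, 5.24, 1.63 and 1.84, lower in both. Near Nenf, at chr1:191292433-191292691, it was 1.79, 4.31, 3.07 and 5.28, higher in both phenelzine lists. Near B4galt1, a galactosyltransferase gene, at chr4:40781933-40782074, it was 5.95, 1.69, 9.87 and 2.41, lower in both. Each of these contrasts rests on 2 libraries a side, which differ from each other in the other factor.

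The highest-ranking of the 912 were picked by −log10 q, so their high values follow from the choice. Their places were not part of it. Of the 20 with the highest mean rank, 0 were at a start window and 3 were inside a protein-coding gene. The first lay at chr2:98666246-98667319, 1034574 bp from Lrrc4c, with −log10 q of 304, 350, 314 and 355 at folds of 7.96, 7.66, 7.67 and 7.71. Myo3a followed, at chr2:22588530-22590517, with 213, 275, 334 and 209, and then a region 829006 bp from Tyrp1 with 160, 193, 213 and 169. The others were nearest to Ccnh, Alkbh8 (3 regions), Brox, Ly6c2, Lrrc4c (2 more), Col19a1, Gm2244 (3 regions), Axin2, Pex2, Cdk8, P4ha2 and Gdi2.

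In 8 regions −log10 q was at least 3 times the median of peaks of like fold, within 10%, in every list, a measure added after the data were seen. They were the 3 near Lrrc4c, the region inside Myo3a, the one near Tyrp1, 2 near Gm2244 and 1 near Ly6c2. All 8 were under the fold limit. The measure could not be formed for 61 regions, the 24 of high fold among them, for want of 20 such peaks in some list. A further wide region, chr1:24611547-24616141, spanned 4595 bp at folds of 2.38 to 2.41 with −log10 q of 64.9, 84.7, 93.4 and 63.4. It covered ends of the pseudogenes Gm10222 and Gm10925. Next to the pseudogene Rn18s-rs5 on chromosome 17, named for 18S ribosomal RNA, 2 wide regions had folds of 2.13 to 2.26.

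The largest cluster held 9 regions over 36.1 kb at the start of the sequence of chromosome 9, from 3000004 to 3036106, with Alkbh8, the nearest gene, between 299125 and 334596 bp away. In 5 of the 9 the fold reached 10 or more. The cluster near Gm2244 on chromosome 14 held 4 regions over 3.69 kb. Those near Mid1, near Lrrc4c and at Midn and Cirbp held 3 each.

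**Figure D4:**
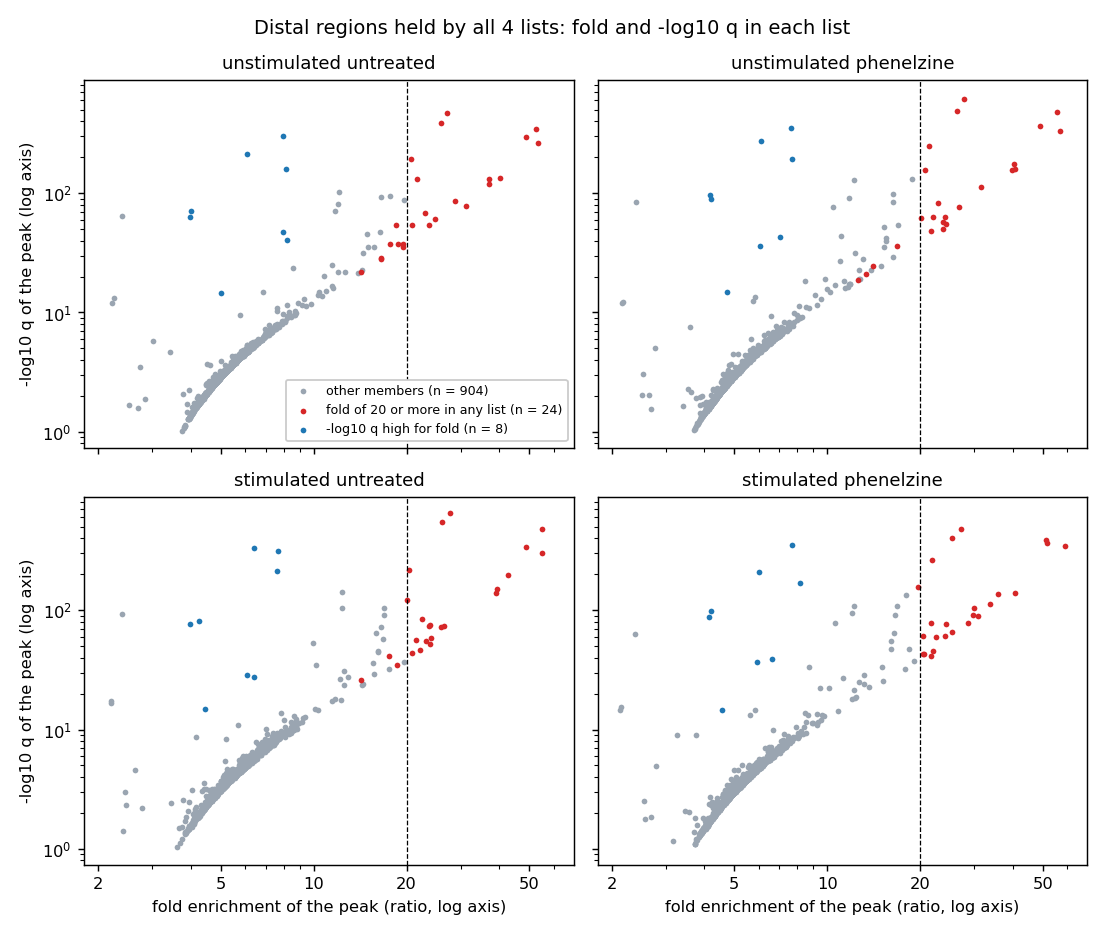
Fold enrichment (x axis, ratio, log scale) against −log10 q (y axis, log scale) of each shared distal region in each of the 4 lists, with the fold limit of 20 as a dashed line. Most of the 904 grey points follow 1 curve, and the 24 regions of high fold, in red, lie toward the right. The 8 in blue lie above the curve. So do some others, among them the red region near Galc, the wide grey region chr1:24611547-24616141 and the grey region near Brox.

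The 24 regions with a fold of 20 or more had median folds of 23.3, 23.9, 23.9 and 25.4 in the 4 lists. The limit was reached by 16, 20, 21 and 23 of them, and in every list by 15. Another 3 reached it in 1 list only, each time that of stimulated cells with phenelzine. These lay inside Jarid2, inside Il31ra and near Kpna1. Near Pak3, a kinase gene, at chrX:143483009-143483109, the fold was 53.4, 57.1, 54.9 and 59.1. Near Abcb11, the bile salt export pump gene, at chr2:69355535-69355670, it was 52.7, 55.5, 55.1 and 51.8. Inside Chl1, a neural adhesion gene, at chr6:103649135-103649286, it was 48.6, 48.9, 48.8 and 51.0. In these 3 no condition stood apart. Folds of 33.8 to 42.6 were found inside Tbx20, inside Zfp804b, with Tex47 as the nearest end, and near Nxph1.

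The remaining regions of high fold were near Rab10, Bambi, Samd9l, Tra2a, Galc, Eea1, Dpy19l2, Frmd4a, Kpna1, Mc2r, Rpusd4 and Alkbh8, and inside Camk1d, Filip1l, Fbxw4, Kctd16, Il31ra and Jarid2. The region 1140495 bp from Galc had the highest −log10 q of all, with 468, 615, 647 and 482 at folds of 27.1, 27.7, 27.6 and 27.1. Just over the limit were the regions inside Jarid2, with 16.6, 14.0, 14.3 and 20.6, and inside Il31ra, with 14.2, 12.6, 18.7 and 21.6. Just under it were regions near Gm15319, at up to 19.7, and in the chromosome 9 cluster, at up to 19.6. A fold of 10 or more but under 20 was reached by 32 regions, of which 2 were at a start window.

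Some measures that the limit did not use are set beside those of the 912. The 24 were narrower, with a median of 133.5 bp (95 to 448) against 282 bp. Of the 24, 9 were inside a protein-coding gene, or 37.5% (18.8 to 59.4), an interval that includes the 51.6% of the 912. In addition, 1 was at a start window, that of the lncRNA gene Gm15564 near Kpna1, or 4.17% (0.105 to 21.1), against 29.1% of the 912. The midpoints of the 4 peaks differed by a median of 3 bp. The median distance to a gene end was 44904.5 bp, against 13069.5 bp. No repeat annotation or mappability track was used here, so whether these places are mapping artefacts was not tested.

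**Figure D5:**
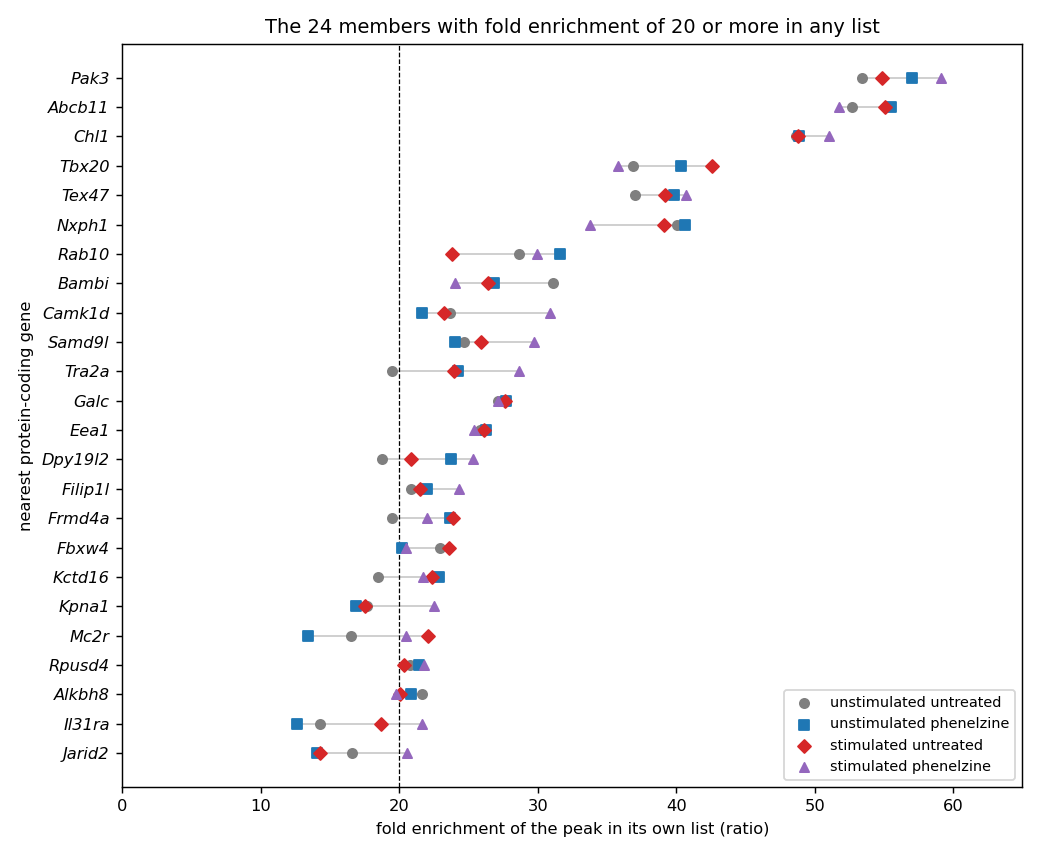
Fold enrichment (x axis, ratio) of the 24 shared distal regions that reached 20 in any list, by the nearest protein-coding gene (y axis), with 1 symbol for each list, a grey line over their range and the limit of 20 dashed. Pak3, Abcb11 and Chl1 stand at the top, and 15 of the 24 lie over the limit in every list.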

How the data were processed

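ATAC-seq peaks of 4 libraries, 1 per condition, were used as deposited. The submitters' processing notes name mm10 and, as tools, MACS2, HOMER, Picard, Bowtie2 2.2.5 and Trimmomatic 0.33. The sources used here give no other versions, parameters or filters. The authors called broad peaks in each library separately. The deposited fold enrichment is a ratio, and p and q are deposited as −log10 values. The deposited score was 10 times −log10 q, rounded down, in at least 99.98% of peaks of each list. The authors' values describe a peak within its own list and are not compared in size between lists as a change. Where a list had several peaks in a region, the highest value was taken.

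Coordinates are mm10, counted from 1. Genes were those of a RefSeq table for the same build, with 21631 protein-coding genes and 27923 of other types. Start windows came from RefSeq, 32851 windows of 27025 genes. No genome was used here, so motifs were searched in start windows only. Python 3.11.15, pandas 2.3.3, NumPy 2.4.6 and SciPy 1.17.1 were used. Merging and gene assignment were tested on simulated data.

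The regions, gene lists and motifs were chosen with earlier results of these data known. Genes named were those of the 20 regions ranked highest, all regions at or over the fold limit, the listed genes, the genes with most regions, the 6 regions whose rank varied most, those next to each limit and the 5 largest clusters. Others are marked as chosen after their values were seen. No test was made, since each condition has 1 library. Other settings for merging, peak strength, list length, gene windows, fold limit, locus and cluster gap were tried. The gene table held no exons, so places inside genes are not divided further. Regions of chromosome Y were left out by the rule.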

Additional observations from a re-analysis of the deposited data

Results flagged for a closer look

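Chromosome Y lay outside the rule that chose the regions. It held 11 merged regions, of which 4 had a peak of every list. Of these 4, 3 were more than 1 kb from the ends of protein-coding genes. Their folds ran from 3.55 to 4.49, and their highest −log10 q was 4.15. There are no control libraries without a Y chromosome in the series to set beside them.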

How the results depend on the processing

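Each condition has 1 library, so no result has a replicate check. No paired analysis was possible because the results come from no test and the labels carry no replicate numbers. The depth is unknown, and lists of different length limit what a shared region means. Motif shares around region centres, with 150, 200 or 300 bases, were planned and not run, since no genome was used here. Of 110 alternatives, 82 left the value close to the main one and 28 moved it. The limit for a close count was loose. Beside the main 936 regions, 644 and 1355 still passed as close, and 614 counted as moved. A share was close if it lay within the interval of the main share. The start-window result, the 200-base centre, the measure of −log10 q for fold and the motif windows were added after the data were seen.

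With only peaks of −log10 q of at least 3, the shared distal regions numbered 250, with 322 protein-coding genes and 2 listed genes in reach, 56 regions at ends of other gene types, 24 in clusters and 38.0% at a start window. With each list limited to its 6519 strongest peaks, the regions numbered 614, listed genes 10, clustered regions 35 and the start-window share 36.2%. With a gene end window of 5 kb, 40.7% of regions were inside a gene, 17.7% at a start window and 99 at an end of another gene type, and 497 genes had one in the locus. With a window of 0.5 kb, 54.8% were inside a gene. With the ends of all gene types removed, 22.3% were at a start window. A window of 5 kb at other gene types gave 285 regions. A fold limit of 10 gave 56 regions and one of 30 gave 9, and the measure of −log10 q for fold gave 8. Cluster gaps of 5 and 50 kb gave 45 and 169 clustered regions. Loci of 50 kb gave 1766 genes.

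Leaving out 1 list at a time gave 994 to 1355 regions, 1087 to 1392 genes, 17 to 25 listed genes, 162 to 205 regions at ends of other gene types, 80 to 145 in clusters, 21 to 24 of high fold, 24.6% to 27.2% at a start window and 51.0% to 51.8% inside a gene. The count of 145 in clusters came without the unstimulated untreated list, and that of 25 listed genes without either unstimulated list. Each such setting asks for 3 lists in place of 4, so more regions pass. With windows overlapped by at least 100 bp, 297 in number, all 11 motif shares stayed within their intervals.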
